A study of Mus musculus with 8 samples.

Results

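The 10 genes described here mark bile duct epithelium and the ductular reaction: Spp1, Sox9, Krt7, Krt19, Krt23, Epcam, Muc1, Cldn7, Cftr and Cd24a. They were taken by symbol, with earlier results of these data known, from a table of 35976 genes measured by RNA sequencing of whole mouse liver. The study set 5 control samples (CTRL) against 3 samples from mice lacking Opa1 in hepatocytes (OPA1_LKO). Sample titles call the first group WT, and both groups were fed a high fat diet. The protein of Opa1 is the GTPase of inner mitochondrial membrane fusion. The study asked how its loss in hepatocytes acts on fatty liver. The labels used here give no age, no sex and no driver of the deletion. They also do not say whether each sample is a separate animal, so the p-values reflect sample-to-sample spread that may partly be technical.

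Bile ducts are lined by cholangiocytes, epithelial cells that carry keratins and junction proteins absent from most hepatocytes and that modify bile by moving chloride, bicarbonate and water. In many forms of liver injury small duct-like structures appear at the portal edge, a change called the ductular reaction, and hepatocytes near them can take up biliary markers such as Sox9 and Spp1. Several of these genes are not private to ducts. Krt19, Epcam, Cldn7 and Cftr belong to most simple epithelia, the gut included, and Spp1 is also made by macrophages.

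The libraries held between 16076392 and 20471256 counts on genes. Opa1 itself was at 39.9 to 57.6 CPM in CTRL and 24.7 to 34.4 CPM in OPA1_LKO, where CPM is the count scaled to a common library size. The groups did not overlap in CPM, but Opa1 missed the threshold by edgeR's quasi-likelihood test (log2 fold change -0.63 ± 0.17 SE, adjusted p = 0.0539). In TPM, which also corrects for transcript length, they did overlap, with 7.45 in OPA1_LKO replicate 2 and 6.73 in CTRL replicate 3. CTRL replicate 1 stood apart in Apoe, the apolipoprotein of remnant particles, with 134 CPM there and 20759 to 33179 CPM elsewhere. CTRL replicate 3 was high in genes of gut epithelium, described further on, and results on the duct genes are therefore given with and without it.

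With all 8 libraries, 6 of the 10 duct markers were higher in OPA1_LKO (Spp1, Sox9, Krt7, Krt23, Muc1 and Cd24a), at an adjusted p under 0.05 over the 14036 genes tested, and 0 were lower. Over all genes tested, 3.34% passed as higher and 6.03% in either direction. All 10 members passed the filter on low counts. Muc1, with 5 to 13 counts in the controls, passed it only with the help of OPA1_LKO libraries, so its direction was in part set by the filter. The median log2 fold change of the 10 was 1.72, beside -0.03 over all genes tested. In the same 6 genes every OPA1_LKO library lay above every CTRL library, a separation seen in 8.0% of all genes. More duct-type cells and more RNA per cell cannot be told apart in whole liver.

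**Figure D1:**
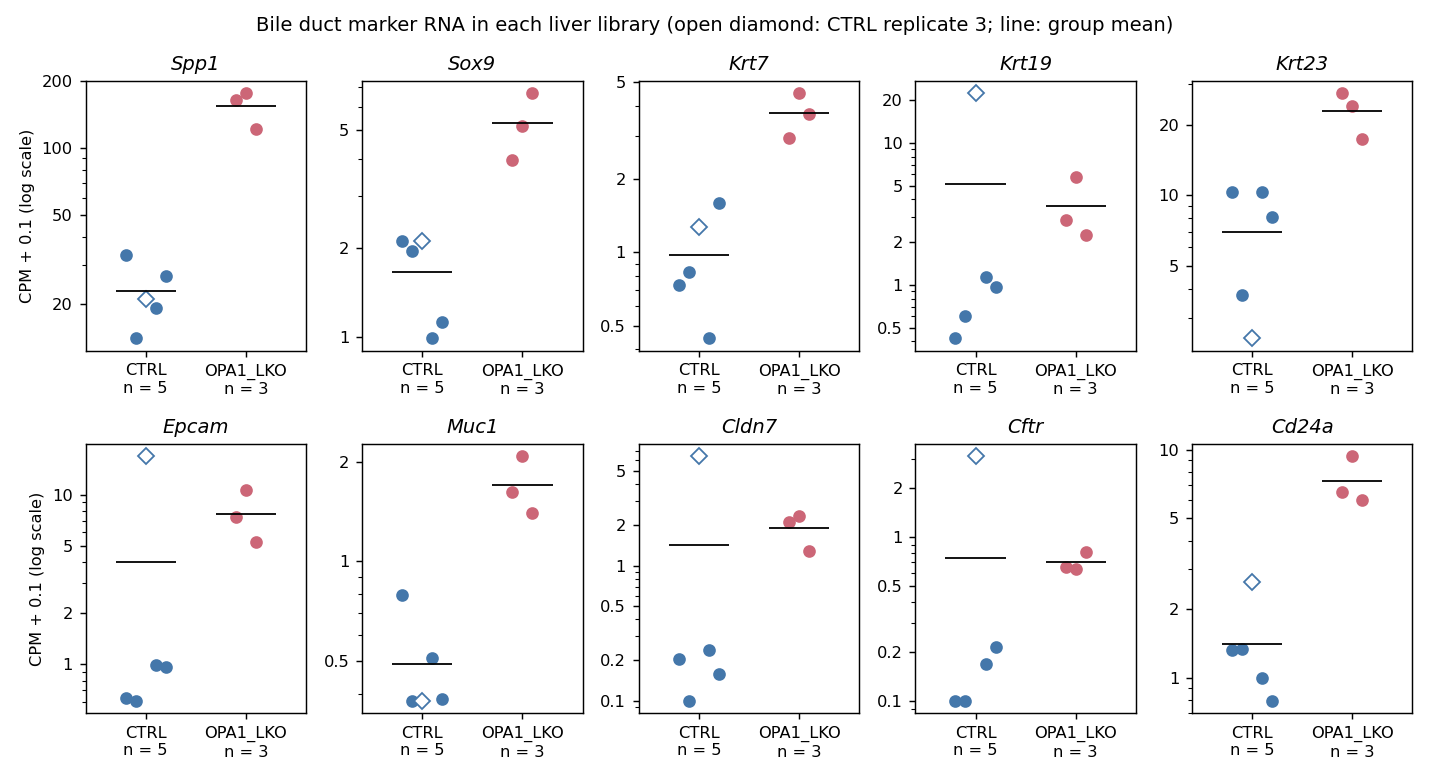
CPM + 0.1 (log scale) of each marker gene by library, with CTRL in blue (n = 5) and OPA1_LKO in red (n = 3), and lines at group means. The OPA1_LKO points lie above all CTRL points in Spp1, Sox9, Krt7, Krt23, Muc1 and Cd24a, whereas in Krt19, Epcam, Cldn7 and Cftr CTRL replicate 3 (open diamond) is the highest library.

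Spp1, on chromosome 5 from 104435111 to 104441053 (GRCm38.p6), encodes osteopontin, a secreted phosphoprotein that binds integrins and CD44. By mean TPM it was the most abundant of the 10 in both groups, although Krt19 exceeded it in CTRL replicate 3. Its CPM in CTRL replicates 1 to 5 was 33.1, 13.9, 20.97, 19.001 and 26.5, and in OPA1_LKO replicates 1 to 3 it was 164, 176 and 122. The lowest OPA1_LKO library thus stood above the highest CTRL library by a wide margin. The group levels were 22.7 ± 7.36 CPM (SD, n = 5) and 154 ± 28.5 CPM (SD, n = 3), which gave a log2 fold change of 2.76 ± 0.25 (SE; adjusted p = 0.00062 by edgeR's quasi-likelihood test with Benjamini-Hochberg adjustment). Spp1 passed in all 8 fits that left out a library. On the length-corrected scale it was at 18.7 ± 8.52 TPM (transcript abundance per length, scaled to a fixed sum) in CTRL and 140 ± 36.5 TPM in OPA1_LKO (SD). Of its 5 listed transcripts NM_009263.3 made up 75.7% to 100% of Spp1 TPM in CTRL and 92.5% to 97.4% in OPA1_LKO. A two-sided exact permutation test of that share, over 56 divisions of the libraries, did not pass (p = 0.964, adjusted p = 0.964 over the 7 transcript shares compared among the 10 genes). The transcript NM_001204233.1 was listed at 0 in all 5 CTRL libraries and made up 0.971% to 1.64% of Spp1 TPM in OPA1_LKO. With 247 to 623 Spp1 counts in the CTRL libraries, a share of that size would rest on few counts, so the 0 need not mean absence. For NM_001204233.1 the test of the share was at its limit. Its exact p of 0.0179 was the smallest that 56 divisions allow, and it did not pass after adjustment (adjusted p = 0.0667).

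Sox9, on chromosome 11 from 112782210 to 112787757, encodes the transcription factor that marks the embryonic ductal plate and adult duct cells. Its CPM was 2.02, 1.85, 2.01, 0.892 and 1.03 in CTRL replicates 1 to 5 and 3.88, 5.08 and 6.57 in OPA1_LKO replicates 1 to 3. CTRL replicates 4 and 5 were the low ones, and no CTRL library reached the OPA1_LKO range. The log2 fold change was 1.72 ± 0.32 (SE; adjusted p = 0.0161, edgeR). The call was lost without OPA1_LKO replicate 3, its highest library, where the adjusted edgeR p was 0.0837.

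Among the 3 keratins of the set, Krt7 and Krt23 rose. Krt7, on chromosome 15 from 101412403 to 101427806, encodes a type II keratin of duct epithelium. It stood at 0.637, 0.730, 1.17, 0.343 and 1.49 CPM in the CTRL libraries and 2.86, 4.41 and 3.61 CPM in the OPA1_LKO libraries. The groups were apart, with CTRL replicate 5 the nearest to OPA1_LKO. Its log2 fold change was 2.04 ± 0.40 (SE; adjusted p = 0.0192, edgeR). Without any one of CTRL replicate 2 and the 3 OPA1_LKO replicates Krt7 did not pass, with an adjusted edgeR p of at most 0.0740.

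Krt23, on chromosome 11 from 99477973 to 99493120, encodes a type I keratin and was the second most abundant marker per length in OPA1_LKO (19.1 ± 5.47 TPM there and 5.20 ± 3.07 TPM in CTRL, SD). Its CPM was 10.2, 3.65, 2.35, 10.2 and 7.96 in CTRL and 27.2, 23.97 and 17.3 in OPA1_LKO. Here CTRL replicate 3 was the lowest library of all, unlike its place in Krt19. The log2 fold change was 1.73 ± 0.41 (SE; adjusted p = 0.0379, edgeR). Krt23 was not past the threshold without CTRL replicate 2, CTRL replicate 5 or any one OPA1_LKO replicate, with an adjusted edgeR p of at most 0.163.

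Muc1 and Cd24a encode surface proteins of epithelia. Muc1, a transmembrane mucin on chromosome 3 from 89229056 to 89233381, had low counts throughout. They were 13, 5, 5, 6 and 5 in CTRL and 33, 44 and 22 in OPA1_LKO. In CPM CTRL replicate 1 was its highest control, at 0.690, still below the OPA1_LKO range of 1.30 to 1.98. The log2 fold change was 2.02 ± 0.39 (SE; adjusted p = 0.0179, edgeR), and the call was lost without any one OPA1_LKO replicate (at most 0.0853). Cd24a, a glycolipid-anchored sialoglycoprotein gene on chromosome 10 from 43579169 to 43584265, was at 1.22, 1.24, 2.52, 0.892 and 0.687 CPM in CTRL and 6.42, 9.31 and 5.92 CPM in OPA1_LKO. CTRL replicate 3 was its highest control but stayed below every OPA1_LKO library. Its log2 fold change was 2.45 ± 0.37 (SE; adjusted p = 0.00619, edgeR), and it passed in all 8 fits that left out a library.

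The RefSeq promoter table (GRCm38.p6), which gives 250 bases before to 50 after each gene start, held an entry for 7 of the 10 genes: Spp1, Krt7, Krt23, Epcam, Muc1, Cldn7 and Cftr. The promoters of Spp1, Krt7 and Krt23 are shown as those of genes that rose with all libraries in the fit, and that of Epcam as one of the 4 genes for which the call turned on CTRL replicate 3. Sequences run 5′ to 3′ on the gene's strand, with matches in capitals to any of 6 motifs searched on both strands. The motifs were chosen with these promoters in view. They were the TATA box (TATAAA), the core of the grainyhead-like factors (ACCGGT), the TEAD motif (GGAATG) and the RBPJ motif (TGGGAA). Also searched were the motif of ETS factors such as Ehf and Elf3 (GGAAGT) and the AP-1 motif. No matches overlap in these 4 windows.
Spp1, chr5:104434861-104435160, plus strand: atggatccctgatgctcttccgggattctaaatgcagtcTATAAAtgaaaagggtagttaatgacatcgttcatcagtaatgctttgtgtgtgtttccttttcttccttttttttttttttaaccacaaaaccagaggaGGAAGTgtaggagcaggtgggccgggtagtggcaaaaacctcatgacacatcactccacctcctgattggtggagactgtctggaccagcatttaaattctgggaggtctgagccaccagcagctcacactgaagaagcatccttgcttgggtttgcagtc
Krt7, chr15:101412153-101412452, plus strand: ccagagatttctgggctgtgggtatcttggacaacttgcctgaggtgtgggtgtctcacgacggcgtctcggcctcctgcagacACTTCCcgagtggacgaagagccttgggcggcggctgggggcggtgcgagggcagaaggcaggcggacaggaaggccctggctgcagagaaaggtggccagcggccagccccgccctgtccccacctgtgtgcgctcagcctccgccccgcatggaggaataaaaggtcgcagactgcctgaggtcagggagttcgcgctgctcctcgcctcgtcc
Krt23, chr11:99493071-99493370, minus strand: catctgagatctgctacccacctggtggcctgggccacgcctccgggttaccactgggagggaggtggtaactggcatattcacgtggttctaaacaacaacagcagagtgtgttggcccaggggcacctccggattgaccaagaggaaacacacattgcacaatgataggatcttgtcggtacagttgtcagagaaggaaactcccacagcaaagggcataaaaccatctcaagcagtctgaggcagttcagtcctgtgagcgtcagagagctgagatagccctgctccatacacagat
Epcam, chr17:87635729-87636028, plus strand: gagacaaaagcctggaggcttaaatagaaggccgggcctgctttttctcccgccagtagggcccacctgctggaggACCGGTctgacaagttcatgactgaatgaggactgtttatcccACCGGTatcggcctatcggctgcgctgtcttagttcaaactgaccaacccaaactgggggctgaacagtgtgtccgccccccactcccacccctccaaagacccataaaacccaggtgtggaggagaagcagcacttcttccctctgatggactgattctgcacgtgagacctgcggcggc
The Epcam window held ACCGGT at 2 places, starting 174 and 131 bases before the gene start, and this motif occurred in 2.33% of 32544 promoters of the same length. Epcam was the only 1 of the 7 members with it. The Spp1 window held TATAAA starting 211 bases and GGAAGT starting 111 bases before the gene start, motifs found in 13.6% and 23.7% of all promoters. Krt7 held GGAAGT on the opposite strand, starting 166 bases before the gene start, and Krt23 held none of the 6. The AP-1 motif, present in 7.79% of all promoters, occurred in 0 of the 7 members. GGAATG (14.6% of promoters) occurred in Cldn7 and Muc1, and TGGGAA (25.4%) in Cldn7. Cldn7 also held GGAAGT, and Muc1 also held TATAAA. These matches describe letters in a short window and say nothing of binding.

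Krt19, Epcam, Cldn7 and Cftr behaved differently, since in each of them CTRL replicate 3 was above all 3 OPA1_LKO libraries while the other 4 CTRL libraries were below them. CTRL replicate 3 was the highest control in 5 of the 10 duct markers, the fifth being Cd24a, and in 19.9% of all genes tested. It was singled out for its high Krt19 and Epcam, so this count follows in part from that choice and is a description. With all 8 libraries the 4 genes did not pass the edgeR test.

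Krt19, on chromosome 11 from 100140810 to 100145926, encodes the type I keratin most used to stain bile ducts. Its CPM was 0.319, 0.506, 22.3, 1.03 and 0.859 in CTRL replicates 1 to 5 and 2.77, 5.67 and 2.13 in OPA1_LKO replicates 1 to 3. CTRL replicate 3 stood 21.7-fold above the next control. Over all libraries the log2 fold change was -0.50 ± 1.23 (SE; adjusted p = 0.837, edgeR), and without CTRL replicate 3 it was 2.42 ± 0.48 (adjusted p = 0.0258, edgeR).

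Epcam, on chromosome 17 from 87635979 to 87651127, encodes an epithelial adhesion protein of ducts and liver progenitor cells. It was at 0.531, 0.506, 16.8, 0.892 and 0.859 CPM in CTRL and 7.25, 10.5 and 5.15 CPM in OPA1_LKO. Leaving aside CTRL replicate 3, the lowest OPA1_LKO library was well above the highest control. The log2 fold change went from 0.96 ± 1.04 (adjusted p = 0.614, edgeR) to 3.48 ± 0.34 (adjusted p = 0.00187, edgeR) without that library.

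Cldn7, a tight junction protein gene on chromosome 11 from 69964779 to 69967886, had 2, 0, 113, 2 and 1 counts in CTRL and 43, 49 and 20 in OPA1_LKO. Cftr, which encodes the chloride channel of the duct's apical membrane (chromosome 6, 18170687 to 18322770), had 0, 0, 54, 1 and 2 counts in CTRL and 12 in each OPA1_LKO library. In both genes the controls other than replicate 3 were at or near 0. The log2 fold change of Cldn7 was 0.43 ± 1.32 with all libraries (adjusted p = 0.875, edgeR) and 4.52 ± 0.61 without CTRL replicate 3 (adjusted p = 0.00565, edgeR). That of Cftr was -0.11 ± 1.31 (adjusted p = 0.970, edgeR) and 3.60 ± 0.76 (adjusted p = 0.0316, edgeR). Summed over libraries and scaled to depth, the ratio of OPA1_LKO to the 4 other controls was 25.3 for Cldn7 (112 against 5 counts, 95% exact counting interval 10.5 to 79.4) and 13.6 for Cftr (36 against 3 counts, 4.28 to 68.8). These intervals cover counting error only. Of the Cldn7 TPM, NM_016887.6 made up 30.9% in CTRL replicate 3, 0% in CTRL replicates 1, 4 and 5, and 67.1%, 100% and 61.9% in the OPA1_LKO libraries, while CTRL replicate 2 had no Cldn7 TPM and was left out. The exact two-sided permutation p of 0.0286 was the smallest that 35 divisions allow, the adjusted p was 0.0667, and 3 of the 4 CTRL shares rest on 1 or 2 counts.

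Without CTRL replicate 3, 10 of the 10 markers passed as higher in OPA1_LKO and 0 as lower, beside 3.21% of the 13915 genes tested that passed as higher and 5.12% in either direction. All 10 were then separated between the groups, as were 10.3% of those genes with OPA1_LKO above. The median log2 fold change of the 10 was 2.59, beside -0.01 over all genes. That library was singled out because it is high in Krt19 and Epcam, so the gain in these genes follows in part from the choice and is a description. Cldn7 and Cftr had 0 to 2 counts in each control left. They passed the low-count filter through the OPA1_LKO libraries alone and could hardly be called lower. Their place in the count of 10 is therefore no support, and Muc1, at 5 to 13 counts, also needed OPA1_LKO libraries to pass the filter. When each of the 7 remaining libraries was also left out in turn, Spp1, Epcam, Cldn7 and Cd24a passed in all 7 fits, whereas Muc1 passed in 1 of 7 and Krt19, Krt23 and Cftr in 2 of 7.

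**Figure D2:**
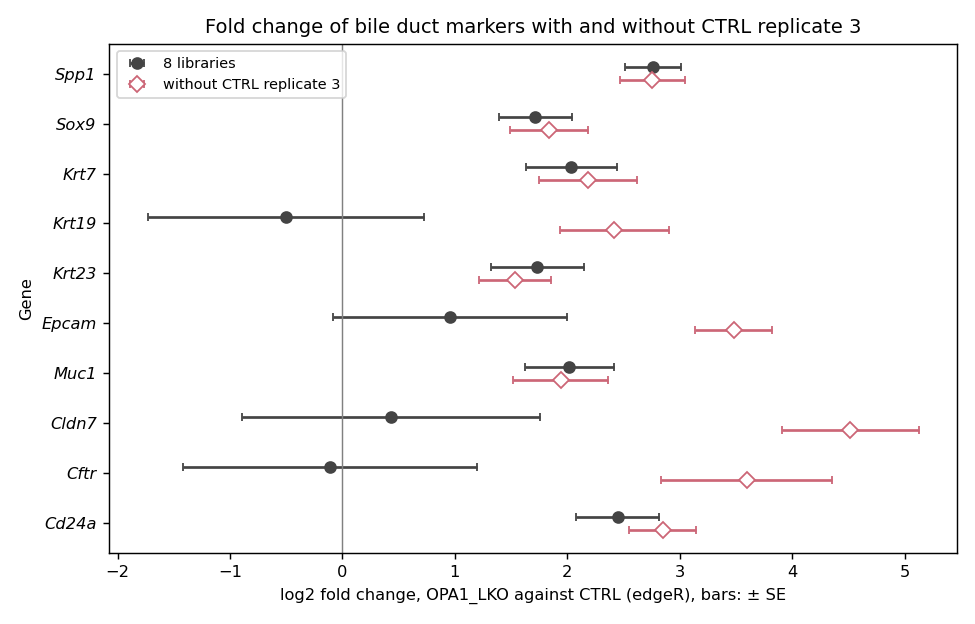
Log2 fold change of OPA1_LKO against CTRL for each marker (horizontal axis, bars ± SE, edgeR), with all 8 libraries (filled circles) and without CTRL replicate 3 (open diamonds). Krt19, Epcam, Cldn7 and Cftr move from between -0.50 and 0.96 to between 2.42 and 4.52, and the other 6 genes shift little.

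CTRL replicate 3 was set apart by markers of gut epithelium. Of 8 intestinal markers listed, all 8 were highest in it, and Cdx1 and Cdx2, the transcription factors that define intestinal epithelium, and Guca2a, its guanylin hormone, had 50, 45 and 4 counts there and 0 counts in each of the other 7 libraries. Vil1, villin of the brush border, had 710 counts in CTRL replicate 3 and 0 to 17 in the others, and Cdh17, a cadherin of the gut, had 210 against 0 to 2. The summed level of the list was 567 TPM in CTRL replicate 3, 298 to 429 TPM in the other controls and 222 to 274 TPM in OPA1_LKO. Most of that sum is Fabp2, an intestinal fatty acid binding protein that this liver also expressed in every library. The genes with the largest excess of CTRL replicate 3 over the next control, chosen after their values were seen, were Prap1, Zg16, Reg1, Slc5a1 and Vil1. Prap1, for example, was at 318 CPM there and at 0 to 2.95 CPM in the other controls. On the same ordering of 14036 genes Krt19, Epcam, Cldn7 and Cftr had ranks 10, 16, 18 and 33. CTRL replicate 3 had been singled out for its high Krt19 and Epcam, so these ranks follow in part from that choice. Of the 8 gut markers, 3 were tested, and 1 fell in OPA1_LKO (Fabp2).

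The ratio of Krt7 to Krt19 in CTRL replicate 3 also differed from that in the other libraries. Krt7 stood at 0.0307 of the Krt19 level there in TPM, against 0.219 to 1.08 in the other controls and 0.612 to 0.906 in OPA1_LKO. For Epcam the same ratio was 0.330, against 0.397 to 0.673 in the other controls and 0.972 to 1.27 in OPA1_LKO. In CTRL replicate 3 the ratios of Cldn7 and Cftr to Krt19, and of Spp1 to Sox9, lay within the range of the other controls. Sox9, Spp1, Krt7, Muc1 and Krt23 were each higher in another control than in that library. How far gut RNA accounts for the Krt19, Epcam, Cldn7 and Cftr reads of CTRL replicate 3 was not tested. In the OPA1_LKO libraries Cdx1, Cdx2 and Guca2a were at 0 counts, and Cdh17 had 0, 1 and 0. Other gut genes were present there. Vil1 had 14, 17 and 9 counts in OPA1_LKO and 2, 0, 11 and 3 in CTRL replicates 1, 2, 4 and 5. Slc5a1, a glucose transporter that is also on the list of duct transport genes, had 66, 78 and 31 counts in OPA1_LKO and 7, 5, 20 and 8 in the same controls. Without CTRL replicate 3 its log2 fold change was 2.22 ± 0.53 (SE; adjusted p = 0.0466, edgeR), and that of Vil1 was 1.41 ± 0.84 (adjusted p = 0.336, edgeR). The part of gut RNA in the OPA1_LKO levels of the duct markers was not tested.

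**Figure D3:**
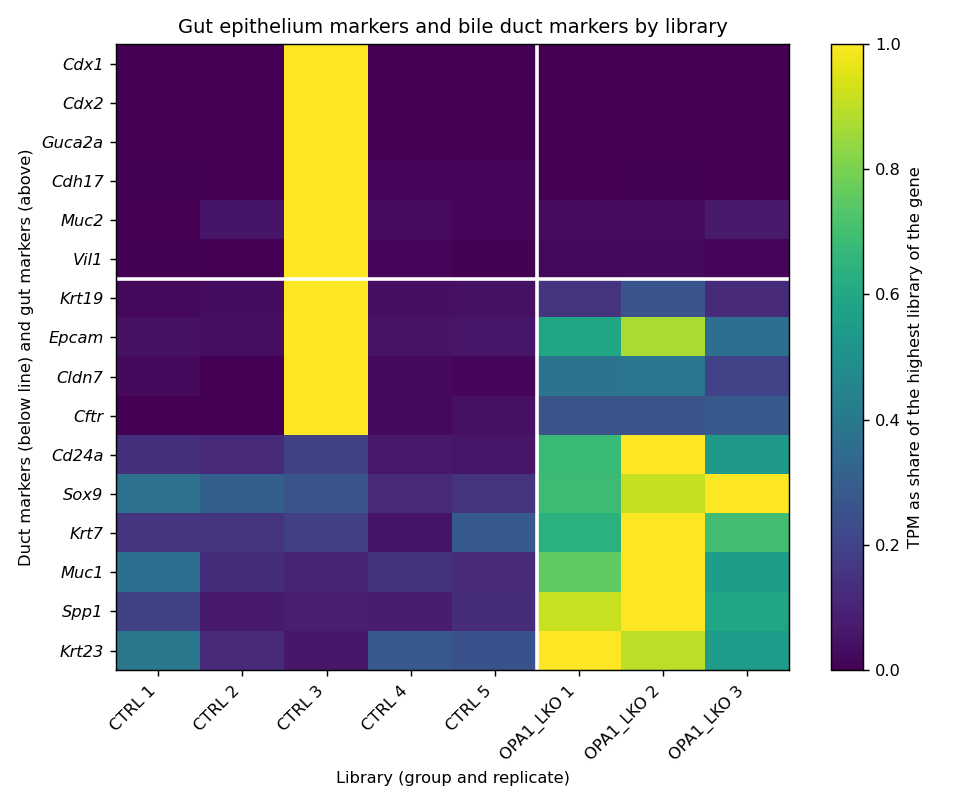
TPM of 6 gut epithelium markers (above the line) and the 10 duct markers (below), each as a share of the highest library of that gene, by library. CTRL replicate 3 holds the maximum of the 6 gut markers and of Krt19, Epcam, Cldn7 and Cftr, whereas an OPA1_LKO library holds it for the other 6 duct markers.

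The duct markers also varied among the 3 OPA1_LKO libraries. OPA1_LKO replicate 2 was the highest of them in 7 of the 10 markers, against 37.6% of all genes. Sox9 and Cftr were the exceptions with OPA1_LKO replicate 3 on top, and Krt23 was highest in OPA1_LKO replicate 1. OPA1_LKO replicate 2 also had the highest summed level of 12 stellate cell and fibroblast markers, 327 TPM, against 131 to 139 TPM in the other OPA1_LKO libraries and 80.6 to 122 TPM in CTRL. The part of that difference in the duct marker levels was not tested. When CTRL replicates 1, 2, 4 and 5 were left out in turn, 6, 4, 6 and 5 markers passed as higher, beside 6.65%, 1.79%, 2.18% and 1.79% of all genes. When OPA1_LKO replicates 1, 2 and 3 were left out in turn, 3, 3 and 2 markers passed, beside 1.01%, 3.03% and 1.10% of all genes. Spp1 and Cd24a were the members called in every one of these fits.

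Further genes of duct epithelium, a list of 34 of which 30 were tested, were compared next. With all libraries 9 of them rose and 0 fell, beside 3.34% of all genes that passed as higher, and the median log2 fold change was 1.26. Leaving out CTRL replicate 3 gave 15 higher and 0 lower, beside 3.21% of all genes, and 8 genes were called in both fits. CTRL replicate 3 was the highest control in 16 of the 30, and in 19.9% of all genes. That library was singled out for high epithelial genes, so the gain to 15 follows in part from the choice and is a description. Bicc1, an RNA-binding protein gene linked to cystic kidney disease, was at 1.44 to 3.08 CPM in CTRL and 7.58 to 12.998 CPM in OPA1_LKO, with a log2 fold change of 2.04 ± 0.28 (SE; adjusted p = 0.00367, edgeR). Ehf, an ETS factor of epithelia, was at 0.206 to 0.951 and 2.01 to 3.28 CPM, though its call was lost without OPA1_LKO replicate 1 (adjusted p = 0.0660, edgeR). Mmp7, the matrix protease of injured duct epithelium, had 0.212 CPM at most in CTRL and 7.39 to 14.3 CPM in OPA1_LKO.

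The simple keratins Krt8 and Krt18, which hepatocytes also carry, did not pass, with log2 fold changes of -0.28 ± 0.21 and -0.18 ± 0.24 (SE). St14, a membrane protease, and Spint1, its inhibitor, passed only when CTRL replicate 3 was left out. St14 then went from 1.30 ± 0.95 to 3.48 ± 0.33 and Spint1 from 0.54 ± 1.15 to 3.55 ± 0.34. These 4 genes were chosen after their values were seen.

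Of 15 transport genes of duct cells 11 were tested, and 2 rose and 0 fell. Sctr, the secretin receptor of cholangiocytes, had a log2 fold change of 2.74 ± 0.61 (SE; adjusted p = 0.0304, edgeR) and passed in 4 of the 8 leave-one-out fits (adjusted edgeR p at most 0.139). Ano1, a calcium-activated chloride channel, differed by 1.31 ± 0.30 and passed in 2 of 8 (at most 0.107). Without CTRL replicate 3, Ano1 did not pass and 3 genes rose (Sctr, Itpr3 and Slc5a1). Gpbar1, a bile acid receptor chosen after its values were seen, was listed at 0 in every library. The median of the list was 0.32.

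Signals that are known to set biliary fate came after these. Of 15 tested Notch ligands, receptors and targets 0 passed the edgeR test in either direction, with or without CTRL replicate 3, and the median log2 fold change was 0.20. At an unadjusted edgeR p under 0.05 there were 2 higher and 1 lower, and DESeq2 and both limma fits on TPM also called 0. Jag1, the Notch ligand of the portal zone, chosen after its values were seen, was at 3.20 to 5.48 CPM in CTRL and 5.77 to 8.01 CPM in OPA1_LKO (adjusted p = 0.115, edgeR). Of 18 tested genes, among 19 found, of the YAP and TGF-beta list 3 rose and 0 fell, in both fits, while the median was -0.04. Ankrd1, a YAP target, was at 0 to 0.168 CPM in CTRL and 2.49 to 2.88 CPM in OPA1_LKO. Ctgf, a matricellular YAP target, was at 1.97 to 8.05 and 19.9 to 52.8 CPM, with OPA1_LKO replicate 2 the highest. Both passed in all 8 fits that left out a library. Tgfb3 differed by 1.88 ± 0.40 (SE) and passed in 3 of 8, where the adjusted edgeR p reached 0.0929.

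Among growth signals of the ductular reaction, 14 of 19 genes were tested and 2 rose, in both fits, with a median of 0.28. Egfr, the epidermal growth factor receptor, was at 49.7 to 78.8 CPM in CTRL and 126 to 231 CPM in OPA1_LKO, and its ligand Areg at 0 to 0.903 and 9.09 to 12.9 CPM. Of the 9 receptors of osteopontin 1 rose, the integrin chain Itga8, by 1.85 ± 0.36 on the log2 scale (SE; adjusted p = 0.0181, edgeR), and the median was 0.07. Cd44, chosen after its values were seen, was at 5.35 to 14.3 CPM in CTRL and 6.46 to 9.76 CPM in OPA1_LKO and did not pass (adjusted p = 0.927, edgeR).

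**Figure D4:**
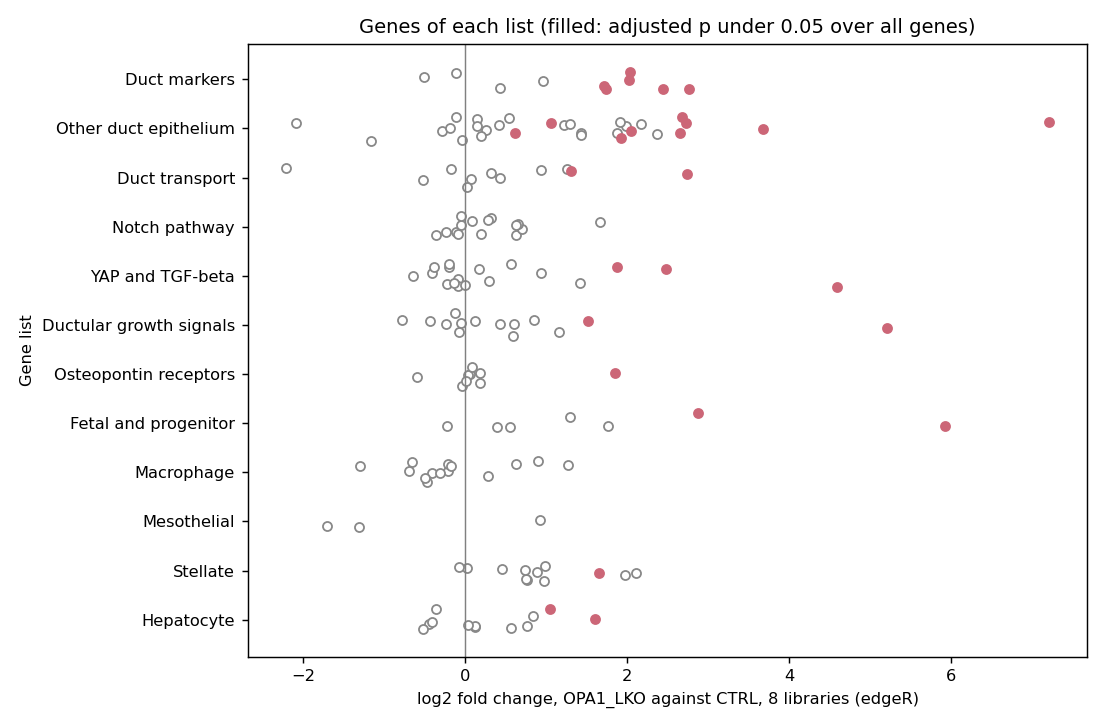
Log2 fold change of OPA1_LKO against CTRL with all 8 libraries (horizontal axis) for the tested genes of 12 lists (rows, with points spread vertically for display), filled where the adjusted p was under 0.05. The duct markers hold 6 filled points of 10, the Notch, macrophage and mesothelial lists hold 0, and no filled point lies below 0.

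Other cells can carry single members of the set, and their part in the duct marker levels was not tested. With all 8 libraries, 0 of 14 macrophage markers passed the edgeR test in either direction. At an unadjusted edgeR p under 0.05, 0 were higher and 1 was lower. DESeq2 called 1 lower, Timd4 of resident Kupffer cells, chosen after its values were seen, and limma on TPM called 0. Their summed level was 130 to 1011 TPM in CTRL, highest in CTRL replicate 1, and 198 to 393 TPM in OPA1_LKO, so the groups overlapped. CTRL replicate 1, which also stood apart in Apoe, was the control with the most Spp1, at 33.1 CPM, below the OPA1_LKO range. That is a single library. Without CTRL replicate 1, Gpnmb, Trem2 and Cd9, chosen after their values were seen, passed as higher in OPA1_LKO. Their adjusted edgeR p was then 0.0065, 0.0338 and 0.0467, in a fit where 6.65% of all genes passed as higher. The other macrophage markers did not pass in that fit. Timd4, Adgre1, Clec4f and Vsig4 had negative log2 fold changes in every leave-one-out fit (at most -1.03, -0.17, -0.17 and -0.14). Those of Gpnmb, Cd9, Marco and Ccr2 were positive in every one (at least 0.98, 0.43, 0.50 and 0.09). These markers too were chosen after their values were seen. Mesothelial cells, which carry Krt7 and Krt19, were low throughout, with 3 of 7 markers tested, 0 passing by edgeR, DESeq2, limma or at an unadjusted p under 0.05, and a sum of 1.10 to 5.39 TPM in CTRL and 0.640 to 2.67 TPM in OPA1_LKO. Exocrine pancreas, whose ducts carry Sox9, Krt19 and Cftr, had 1 of 8 markers tested, which did not pass, and a sum of 10.6 to 40.3 TPM in CTRL and 13.3 to 17.0 TPM in OPA1_LKO. Of 12 hepatocyte markers 2 rose and 0 fell, and their sum was 54448 to 67135 TPM in CTRL and 62342 to 74906 TPM in OPA1_LKO.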

How the data were processed

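Liver RNA was made into libraries with a stranded mRNA kit, per the labels' protocols. Build mm10 and the tools RSEM, STAR, MultiQC and StringTie stand in the submitters' processing notes, without versions or an annotation release. What the authors deposited were expected counts, estimated by RSEM and not normalised, and TPM, corrected for transcript length and scaled to a fixed sum, each per gene and per transcript. RSEM divides reads shared between genes by estimation. In the GENCODE M21 annotation Spp1 shares up to 181 bases of an exon with Gm42793 on its own strand, and Cftr and Krt7 share 129 and 77 bases with genes on the opposite strand. By symbol, these overlapping genes were not among the genes the authors counted, so the counts hold no division of reads with them.

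Expected counts were rounded, filtered with filterByExpr of edgeR 4.0.16 (count minimum 10, total minimum 15), which left 14036 genes, scaled by TMM and tested with the quasi-likelihood test in R 4.3.3 on group alone, with Benjamini-Hochberg adjustment over all genes tested. An adjusted p under 0.05 was called. A gene near 0 in the controls, such as Mmp7 or Ankrd1, passed the filter through the OPA1_LKO libraries and could hardly be called lower. Alternatives used DESeq2 1.42.0, limma 3.58.1, other factors, no filter, a replicate block and each library left out. The fits were tested on simulated data. The library totals set the precision: a gene with 5 counts in a library is known only coarsely.

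The 10 members, the other 18 gene lists (235 of 236 entries matched over all lists, 2 of them by another symbol, and Ccn1 did not), the tests and the motifs were chosen with earlier results of these data known, so no list or test is independent of them. Named were all members, Opa1, and in each list up to 4 called genes with the smallest p, except for a result that is not reported here. Genes outside this rule are said to have been chosen after their values were seen, as were Prap1, Zg16, Reg1, Itpr3, Apoe and the named gut markers other than Fabp2.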

Additional observations from a re-analysis of the deposited data

Results flagged for a closer look

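In 5 of 31 named genes a control library stood far from the others, measured as the gap to its nearest neighbour divided by the range of the 5 CTRL libraries in CPM. Chance alone flags about 1 in 20 such groups. CTRL replicate 3 had been singled out beforehand for its high Krt19 and Epcam, so its gaps in these genes restate that observation and cannot be read against the chance rate. In 4 of them the library was CTRL replicate 3, with a gap of 0.968 of the range for Krt19, 0.976 for Epcam, 0.978 for Cldn7 and 0.962 for Cftr. In Mmp7 it was CTRL replicate 1, with a gap of 0.730 of the range where it held 0.212 CPM and the other controls 0 to 0.0573 CPM. That flag rests on 4 counts in CTRL replicate 1 and 0 or 1 in each other control, too few to set the library apart.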

How the results depend on the processing

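The number of genes changed, 846 with the main test, was 1692 with DESeq2, 560 with log2(TPM + 0.1) and 367 with the replicate number as a block, and between 198 and 1701 when a library was left out. The share of higher genes among those called was 55.4%, and it was 67.0% with upper-quartile factors, 82.5% and 79.8% with log2(TPM + 1) and log2(TPM + 0.1), which put the median log2 fold change of all genes at 0.09 and 0.14 in place of -0.03. The 6 duct markers called with all libraries were the same 6 with both other sets of factors, DESeq2, no filter and both TPM scales. The count was 3 with the replicate block (Spp1, Krt7 and Krt23) and 2 to 10 when a library was left out. Without CTRL replicate 3, the 10 markers called became 0 with the replicate block, in a fit where OPA1_LKO replicate 3 has no partner, 9 without a filter and with both TPM scales, and 4 to 10 when a further library was left out. These 7-library alternatives were chosen after the data were seen. The log2 fold change of Krt19, -0.50, was 0.72 with log2(TPM + 1), 1.25 with log2(TPM + 0.1), 1.04 with the replicate block and -1.03 to 2.42 when a library was left out, the highest without CTRL replicate 3. That of Cftr, -0.11, was 0.043, 0.53, 1.05 and -0.44 to 3.60 in the same settings. The cause of these differences was not tested, other than that the last setting drops the highest library. DESeq2 gave no adjusted p for Krt19, Cldn7 and Cftr. The labels do not say that replicate numbers pair samples, and the deviations of same-numbered libraries from their group means correlated at 0.111, 0.0754 and 0.224. For OPA1_LKO replicates 1 and 3 the same-numbered control correlated best, with the next control at 0.0469 and 0.0426. OPA1_LKO replicate 2 correlated better with CTRL replicate 5 (0.199) than with its own number. Whether the samples are paired was not tested. At these depths Muc1, Cldn7 and Cftr rest on 0 to 13 counts in each control other than replicate 3. Counts in those controls were also low for Krt19 (6 to 15), Epcam (9 to 15), Krt7 (5 to 26), Cd24a (12 to 23) and Sox9 (13 to 38).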

Other observations

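Of 7 tested fetal and progenitor genes 2 rose and 0 fell. H19, an imprinted RNA of fetal liver, was at 0.172 to 0.671 CPM in CTRL and 8.82 to 34.8 CPM in OPA1_LKO. Unlike most duct markers it was lowest in OPA1_LKO replicate 2. Igf2, the fetal growth factor next to H19, was at 0.115 to 1.54 and 2.34 to 6.003 CPM and passed in 3 of the 8 leave-one-out fits (adjusted edgeR p at most 0.143). Of 8 markers of dividing cells 2 rose, the mitotic kinase genes Plk1 (1.64 ± 0.39 SE on the log2 scale) and Cdk1 (1.22 ± 0.31), which passed in 2 and 1 of 8 such fits, where the adjusted edgeR p reached 0.159 and 0.188.

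Of 12 stellate cell and fibroblast markers 1 rose, Pdgfra, a growth factor receptor of fibroblasts, by 1.65 ± 0.26 (SE), and it passed in all 8 fits that left out a library. The hepatocyte genes that rose were Tat and Pck1, enzymes of fasting metabolism, by 1.61 ± 0.26 and 1.05 ± 0.22 (SE). Pck1 passed in 5 of 8 such fits, where the adjusted edgeR p reached 0.0974. Fabp2 fell by 1.28 on the log2 scale and passed in 2 of 8, where it reached 0.143. Of 8 endothelial, 9 lymphocyte, 3 tested neutrophil and 6 tested erythroid markers 0 passed the edgeR test in either direction, and DESeq2 and limma also called 0. At an unadjusted edgeR p under 0.05 the higher ones numbered 1, 2, 0 and 0 and the lower ones 0, 0, 0 and 1. The summed level of the lymphocyte markers was 4.88 to 11.1 TPM in CTRL and 9.89 to 18.2 TPM in OPA1_LKO. Summed endothelial markers were at 36.2 to 79.9 TPM in CTRL and 38.4 to 97.0 TPM in OPA1_LKO, neutrophil markers at 9.38 to 63.0 and 9.35 to 19.3 TPM, and erythroid markers at 714 to 1573 and 648 to 1766 TPM. The groups overlapped in these 4 sums.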
